A study of Mus musculus with 6 samples.

Results

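The 7 genes described here encode the adaptor chains of activating immune receptors: Cd247 (the zeta chain of the T cell receptor), Cd3d, Cd3e and Cd3g (the CD3 delta, epsilon and gamma chains), Fcer1g (the common gamma chain of Fc receptors), Tyrobp (DAP12) and Hcst (DAP10). They were chosen by symbol and are 7 of the 55450 genes counted. The choice was made with the difference between CD61High and CD61Low in these libraries known, so their values in that contrast are given as a description and no p-value is given for any of them. Intervals beside their ratios cover counting error within 1 mouse and do not compare the gates over mice. RNA of LT-HSCs, the long-term stem cells of the blood, was sequenced in bulk from wild-type male C57/Bl6 mice aged 22 to 24 months. The sort took cells with Sca1, cKit and CD150 on the surface and without lineage markers or CD48. A CD61High library was made from the 10% of these cells with the most surface CD61 (integrin beta 3) and a CD61Low library from the 10% with the least, 5000 cells each, in each of 3 mice. Age, sex, genotype and the sort for LT-HSCs are shared by both groups, and no young animals were included. The titles name 1 mouse for each library although the protocol mentions pools of cells.

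An immunoreceptor tyrosine-based activation motif (ITAM) is a short stretch of a cytoplasmic tail with a pair of tyrosines. Src-family kinases phosphorylate both tyrosines, and the tandem SH2 domains of ZAP-70 or SYK then dock on them and start signalling. The zeta and CD3 chains serve the T cell receptor, and the zeta chain also serves receptors of NK cells. The Fc receptor gamma chain and DAP12 serve many receptors of myeloid cells, and DAP10 serves NKG2D.

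The motif that defines the group was read from the coding sequence of GENCODE M21 transcripts. It was searched as a tyrosine codon followed by any pair of codons and a leucine or isoleucine codon, a spacer of 6 to 12 codons, and the same 4-codon unit again. The transcript with the most such motifs was used for each gene, and the sequences are shown because the number of motifs separates Cd247 from the other adaptors. Capitals mark the tyrosine codons and the leucine or isoleucine codons that close each unit. The bases run 5′ to 3′ on the coding strand.
Cd247 ITAM 1: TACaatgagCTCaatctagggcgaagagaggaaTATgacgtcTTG
Cd247 ITAM 2: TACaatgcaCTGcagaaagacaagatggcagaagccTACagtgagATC
Cd247 ITAM 3: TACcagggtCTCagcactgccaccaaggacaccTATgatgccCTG
Cd3d ITAM: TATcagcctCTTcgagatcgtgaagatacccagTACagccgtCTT
Cd3e ITAM: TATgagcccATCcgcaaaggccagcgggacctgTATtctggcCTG
Cd3g ITAM: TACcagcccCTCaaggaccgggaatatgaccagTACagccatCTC
Fcer1g ITAM: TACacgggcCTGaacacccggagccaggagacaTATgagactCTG
Tyrobp ITAM: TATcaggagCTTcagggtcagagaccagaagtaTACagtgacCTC

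Cd247 held 3 motifs in a coding sequence of 164 codons, with first tyrosines at codons 72, 111 and 142. Cd3d, Cd3e, Cd3g, Fcer1g and Tyrobp held 1 each. The second motif of Cd247 had 8 codons in its spacer and the others had 7. Hcst held no ITAM. Its tail carries a tyrosine followed by a methionine, a motif that recruits phosphoinositide 3-kinase and GRB2, and it is shown with the 5 codons before it and the last 4 codons of the coding sequence after it, and with the tyrosine (codon 72) and methionine codons in capitals.
Hcst: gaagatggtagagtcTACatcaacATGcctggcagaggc

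The genes lie in 4 places on GRCm38, as annotated in GENCODE M21. Cd247 (ENSMUSG00000005763.15) spans chromosome 1, 165788681 to 165877277 on the plus strand. Fcer1g (ENSMUSG00000058715.11) lies on the same chromosome at 171229572 to 171234365, on the minus strand. Tyrobp (ENSMUSG00000030579.10; chromosome 7, 30413760 to 30417585) and Hcst (ENSMUSG00000064109.8; 30417712 to 30419854) are neighbours that point toward each other. Cd3g (ENSMUSG00000002033.14; chromosome 9, 44969572 to 44980431) and Cd3d (ENSMUSG00000032094.8; 44981786 to 44987339) are transcribed away from each other from starts 1355 bases apart, and Cd3e (ENSMUSG00000032093.7; 44998740 to 45009627) follows on the same chromosome.

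Total counts on genes were 21354130 to 26398090 per library. Where no read was counted, up to 3 counts remain possible, which is 0.114 to 0.140 CPM (the count scaled to a common library total, here without adjustment). All 14 HSC markers, such as Hlf, Mecom and Procr, were above 1 CPM in all 6 libraries. In both gates, the summed neutrophil, monocyte, T cell, NK cell, B cell, dendritic, erythroid, and basophil and mast cell markers were highest in mouse 2, then mouse 1, then mouse 3, and the platelet and megakaryocyte markers had the opposite order. The summed level of 20 neutrophil markers was 81800 CPM in CD61High and 159000 CPM in CD61Low for mouse 2. It was 5560 against 21300 CPM for mouse 1, and 593 against 2270 CPM for mouse 3. Of these markers, 20 of 20 were lower in CD61High in all 3 mice. Of the 15610 genes kept by the filter on low counts, 24.7% were. Summed erythroid markers ranged from 590 to 35900 CPM, dendritic markers from 12.6 to 361, basophil and mast cell markers from 8.04 to 1420, and platelet and megakaryocyte markers from 996 to 2840 CPM. Itgb3, the gene of CD61, was at 206, 140 and 227 CPM in CD61High of mice 1, 2 and 3 and at 294, 129 and 336 CPM in CD61Low. In the bulk libraries, fewer cells of a type and less RNA per cell cannot be told apart.

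Cd247 transcripts were few, lower in CD61High than in CD61Low in 3 of 3 mice, and at nearly the same level in each mouse. The counts in CD61High were 79, 78 and 77 in mice 1, 2 and 3, which is 3.40, 3.40 and 2.84 CPM. In CD61Low they were 168, 139 and 190, or 6.13, 6.88 and 7.07 CPM. All CD61High libraries lay below all CD61Low libraries. The log2 difference, CD61High minus CD61Low, was -0.84, -1.0 and -1.29 in the 3 mice, with a mean of -1.04 ± 0.23 (SD, n = 3). That is a level 2.06-fold higher in CD61Low. Within a gate, Cd247 spanned 0.25 log2 units over the mice in CD61High and 0.20 in CD61Low, which is less than its smallest difference between the gates.

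The CD3 genes, which assemble with the zeta chain in T cells, spanned 4.09 to 6.05 log2 units over the mice in CD61High and 4.13 to 5.21 in CD61Low. Cd3e had 20, 145 and 8 counts in CD61High of mice 1, 2 and 3 and 100, 199 and 13 in CD61Low. Cd3d had 17, 168 and 2 against 96, 245 and 8. Cd3g had 11, 122 and 0 against 105, 254 and 7. Each gene was highest in mouse 2 and close to the counting floor in mouse 3, and the groups overlapped for all 3. In CD61Low, Cd3e was 20.3-fold, Cd3d 40.7-fold and Cd3g 48.2-fold higher in mouse 2 than in mouse 3, while Cd247 was at 0.972 times its level in mouse 3.

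Each CD3 gene was lower in CD61High in 3 of 3 mice. The mean log2 difference was -1.07 ± 0.79 (SD, n = 3) for Cd3e, -1.38 ± 0.71 for Cd3d and -2.04 ± 0.80 for Cd3g. The values of Cd3d and Cd3g take in libraries with 2 and 0 counts and so depend on the prior count of 2. In mouse 3, the Cd3d ratio of CD61High to CD61Low was 0.248 with an exact 95% interval for counting error of 0.0256 to 1.24, and that of Cd3e was 0.610 (0.219 to 1.59). Both intervals include 1, so a difference of either gene alone was not detectable at this depth in mouse 3. Cd3g, with 0 against 7 counts, had an upper bound of 0.688, and the CD3 genes summed had a ratio of 0.354 (0.154 to 0.751), below 1 within counting error. The ratio for Cd247 there was 0.402 (0.304 to 0.526).

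**Figure D1:**
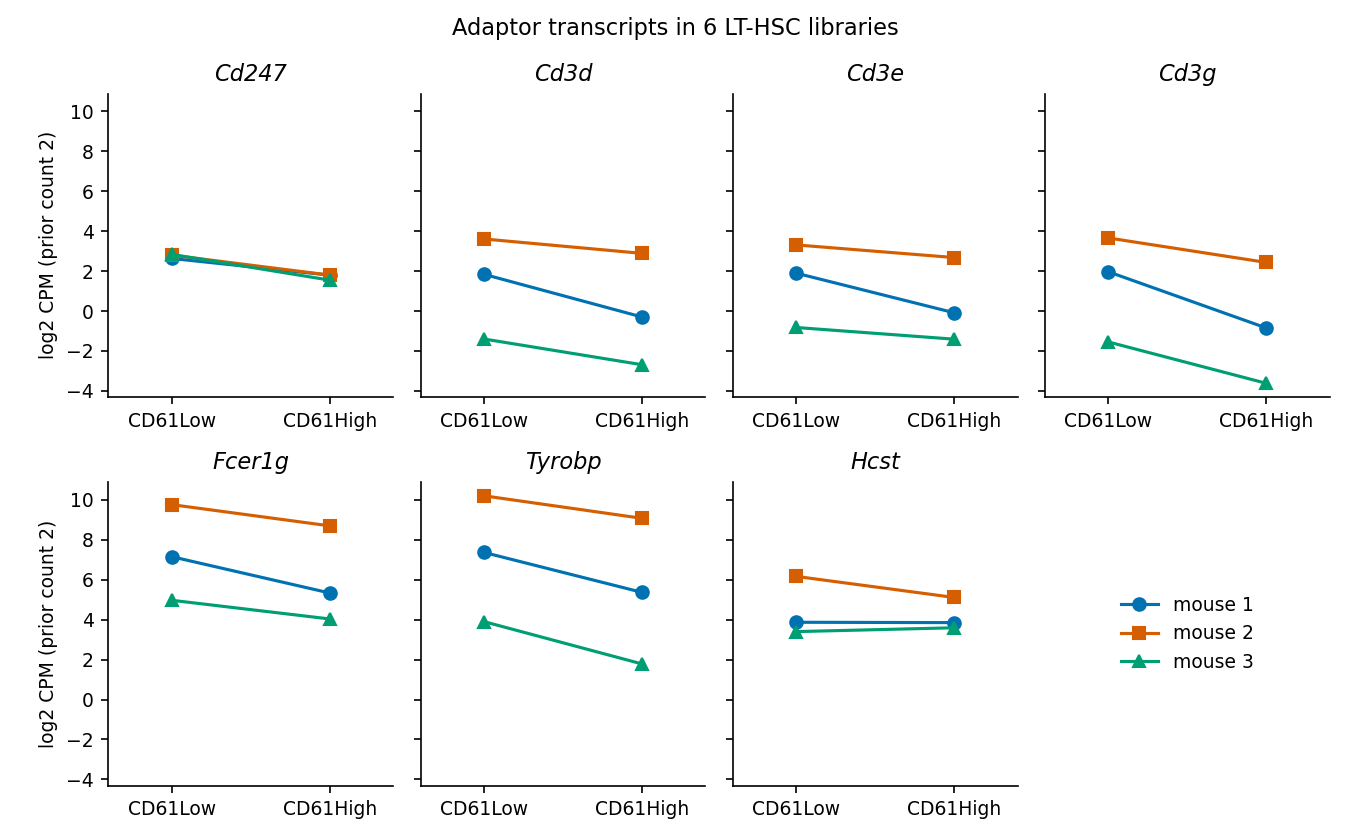
Level of each adaptor, as log2 CPM with a prior count of 2, in the CD61Low and CD61High library of each mouse; a line joins the libraries of 1 mouse. The 3 lines of Cd247 lie close together, those of the CD3 genes, Fcer1g and Tyrobp are spread by mouse, and those of Hcst are flat in mice 1 and 3.

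Whether Cd247 moves with the CD3 genes was asked between the gates, where the 3 mice do not settle it, and between the mice. Between the gates, the difference of Cd247 less the mean difference of the CD3 genes was 1.48, -0.14 and 0.03 log2 units in mice 1, 2 and 3, with a mean of 0.46 ± 0.89 (SD, n = 3). The mean is smaller than its SD. It was -0.06 without mouse 1 and 0.75 without mouse 2, and moved from 0.26 to 0.73 with prior counts of 5 and 0.5. In mouse 1 the ratio of CD61High to CD61Low was 0.555 for Cd247 (exact 95% interval for counting error 0.419 to 0.729). For the CD3 genes summed it was 0.188 (0.136 to 0.256), while in mice 2 and 3 the intervals overlapped. Between the mice, Cd247 stood apart. It gave 15.2% of the reads of Cd247 and the CD3 genes together in CD61High of mouse 2 (Wilson 95% interval 12.4 to 18.6) and 16.6% (14.2 to 19.3) in CD61Low. In mouse 1 the shares were 62.2% (53.5 to 70.2) and 35.8% (31.6 to 40.3), and in mouse 3 they were 88.5% (80.1 to 93.6) and 87.2% (82.1 to 91.0). Put as reads of Cd247 per CD3 read, the range ran from 0.179 in CD61High of mouse 2 to 7.70 in CD61High of mouse 3.

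T cell markers lay beside the CD3 genes in this order of mice. The summed level of 15 T cell markers, none of them an adaptor, was 94.2 CPM in CD61High and 147 CPM in CD61Low for mouse 2, 16.7 against 48.0 CPM for mouse 1, and 6.17 against 6.96 CPM for mouse 3. In mouse 3, Trbc2, a constant segment of the T cell receptor, and Themis, 2 of the 15, had 0 counts in both libraries, and only Cd28 of the 15 reached 1 CPM in both. Of the markers, 8 of 15 were lower in CD61High in 3 of 3 mice, against 24.7% of the genes kept by the filter. Of 12 NK cell markers 3, Ncr1, Gzma and Klra8 had 0 counts in both libraries of mouse 3, and Klrb1c and Nkg7 reached 1 CPM in both. Other markers were present in mouse 3: in CD61High and CD61Low the T cell receptor gene Trac had 26 and 12 counts, Cd28 50 and 78, and Ubash3a 67 and 21, while the NK cell genes Nkg7 and Klrb1c had 1252 and 177 and 944 and 2445. The sum of the 14 HSC markers differed between the gates by -0.39, 0.39 and -0.40 log2 units in mice 1, 2 and 3, which is unlike Cd247 in the sign of mouse 2. The summed NK list ranged from 82.0 to 277 CPM in CD61High and from 99.1 to 413 CPM in CD61Low. In mouse 3, Nkg7 and Klrb1c made up most of it, at 46.2 and 34.9 CPM in CD61High and 6.59 and 91.0 CPM in CD61Low. Klrb1c was lowest in mouse 2 in both gates, at 21.1 and 46.5 CPM, where the sum was highest. The part of T and NK cells in the difference of Cd247 was not tested.

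The reads counted for Cd247 need care, because 60.3% of its 5329 annotated exon bases overlap exons of other genes. Of these, 3007 are shared with Pou2f1, a transcription factor gene on the opposite strand that ends inside Cd247, and 206, the first exon, with the non-coding gene Gm16565. The library kit does not mark strand, and STAR leaves a read on exons of more than 1 gene out of the unstranded gene count. The 2116 unshared bases hold 434 coding bases. Pou2f1 was at 20.3 to 28.5 CPM in CD61High and 21.6 to 34.1 CPM in CD61Low, with log2 differences of -0.08, -0.09 and -0.26 in mice 1, 2 and 3. Those of Gm16565 were -0.57, 0.45 and -1.15. Gm16565 was thus lower in CD61High in mice 1 and 3, as Cd247 was, and higher in mouse 2, at 94 against 60 counts. The part of either neighbour in the counts of Cd247 was not tested. Gene counts do not show on which exons the reads of Cd247 fell, and reads of unprocessed or extended neighbouring transcripts on the unshared exons cannot be told apart from those of Cd247.

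**Figure D2:**
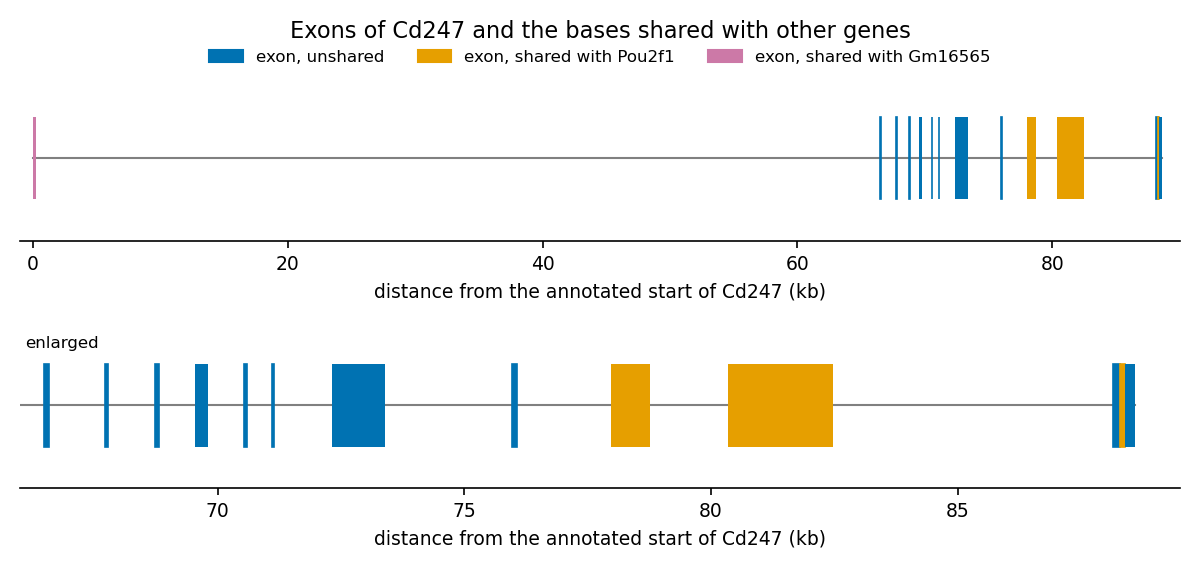
Exons of Cd247 drawn to scale as the distance from its annotated start in kb, over the whole gene (top) and enlarged over its 3′ part (bottom), coloured by overlap with exons of other genes. The 3007 bases shared with Pou2f1 lie in the last exons, and the unshared exons lie upstream of them and at the 3′ end.

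Fcer1g and Tyrobp, the adaptors of myeloid receptors, were lower in CD61High within each mouse and differed widely between mice, by 4.66 and 7.29 log2 units in CD61High and by 4.79 and 6.30 in CD61Low. Fcer1g had 40.3, 415 and 16.3 CPM in CD61High of mice 1, 2 and 3 and 143, 869 and 31.3 CPM in CD61Low. Tyrobp had 41.2, 540 and 3.36 CPM against 165, 1180 and 14.9 CPM. In both genes the gates overlapped, since either library of mouse 2 exceeded all libraries of the other mice. The mean log2 difference was -1.27 ± 0.48 (SD, n = 3) for Fcer1g and -1.75 ± 0.54 for Tyrobp.

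The pair separated in mouse 3. Tyrobp was 161-fold higher in mouse 2 than in mouse 3 in CD61High and 79.2-fold in CD61Low, and Fcer1g 25.4-fold and 27.7-fold. In CD61High of mouse 3, Fcer1g had 442 counts and Tyrobp 91, or 18.7 and 5.04 CPM per kb of unshared exon. The sums of the neutrophil markers and of 15 monocyte and macrophage markers had the same order of mice as both genes. The erythroid, B cell and dendritic sums had this order too. In mouse 3 the log2 difference between the gates was -0.94 for Fcer1g and -2.12 for Tyrobp. It was -1.94 for the neutrophil sum and -0.41 for the monocyte sum. The summed monocyte list ranged from 388 to 9400 CPM in CD61High and from 516 to 17700 CPM in CD61Low. Of its 15 genes, 13 were lower in CD61High in 3 of 3 mice, against 24.7% of the genes kept by the filter. No neutrophil or monocyte marker was at 0 in both libraries of mouse 3. Their part in the differences of Fcer1g and Tyrobp was not tested.

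Hcst, the DAP10 gene, had the order of mice of its neighbour Tyrobp in both gates. It did not follow Tyrobp in the differences between the gates in mice 1 and 3. It had 14.4, 34.5 and 12 CPM in CD61High of mice 1, 2 and 3 and 14.6, 71.9 and 10.5 CPM in CD61Low. The gates overlapped, and mouse 2 was the only mouse in which they lay far apart. The log2 differences were -0.02, -1.06 and 0.19, with a mean of -0.29 ± 0.67 (SD, n = 3) that was 0.09 without mouse 2. The counting intervals of the ratio of CD61High to CD61Low included 1 in mouse 1 (0.987, 0.851 to 1.14) and in mouse 3 (1.14, 0.971 to 1.35). The neutrophil sums in CD61High and CD61Low were 5560 against 21300 CPM in mouse 1 and 593 against 2270 CPM in mouse 3. The part of neutrophils in the values of Hcst was not tested.

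**Figure D3:**
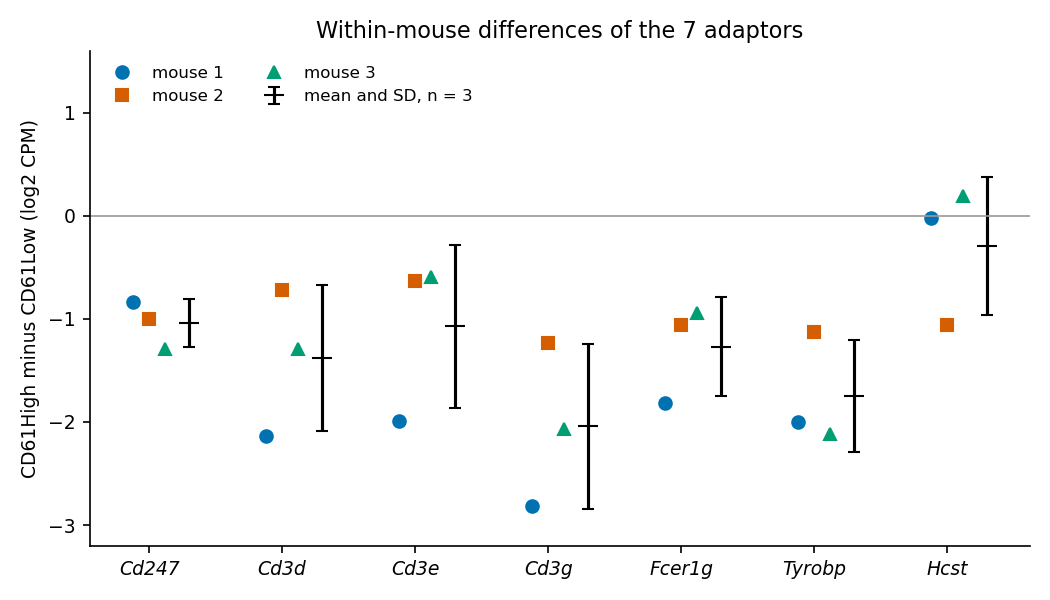
Difference in log2 CPM between the CD61High and the CD61Low library of each mouse for the 7 adaptors; bars give the mean and SD of 3 mice. The points of Cd247 lie between -1.29 and -0.84, the closest set, while those of Hcst lie on both sides of 0.

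Of the 7 adaptors 6, all but Hcst, were lower in CD61High in 3 of 3 mice, as were 24.7% of the 15610 genes kept by the filter on low counts. Only Cd247 had all CD61High libraries below all CD61Low libraries, as did 5.71% of those genes. Tyrobp and Cd3g were lower by over 1 log2 unit in each mouse, as were 1.6% of the genes, though Cd3g had 0 and 7 counts in mouse 3. The median of the 7 mean differences was -1.27, and the median over the 15610 genes was -0.02. All 7 adaptors passed the filter. Over all genes, edgeR's quasi-likelihood test without a block called none of them at an adjusted p under 0.05, where the percentage called was 0.0% (0 of 15610 genes, with 1023 at an unadjusted p under 0.05). DESeq2 called 237 genes and limma voom 0. Blocked by mouse, edgeR called 40 genes, 0.256% (0.16% lower in CD61High), and again none of the 7. Since the list was drawn up on this contrast, nothing is read from these counts.

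Levels were compared between genes per kb of exon not shared with other genes. The median over the 6 libraries was 155 CPM per kb for Tyrobp, 105 for Fcer1g, 20 for Hcst, 2.25 for Cd247, 1.17 for Cd3d, 0.657 for Cd3g and 0.572 for Cd3e. Of neighbours in this order, only Hcst (14.5 to 99.5 CPM per kb) and Cd247 (1.34 to 3.34) had ranges that did not overlap. In mouse 3, which had the lowest neutrophil and T cell sums, the order in CD61High was Fcer1g (18.7 CPM per kb), Hcst (16.6), Tyrobp (5.04) and Cd247 (1.34), and the CD3 genes were at 0.0749 or less. In CD61Low of mouse 3 it was Fcer1g (35.8), Tyrobp (22.3), Hcst (14.5) and Cd247 (3.34), with the CD3 genes at 0.164 or less.

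**Figure D4:**
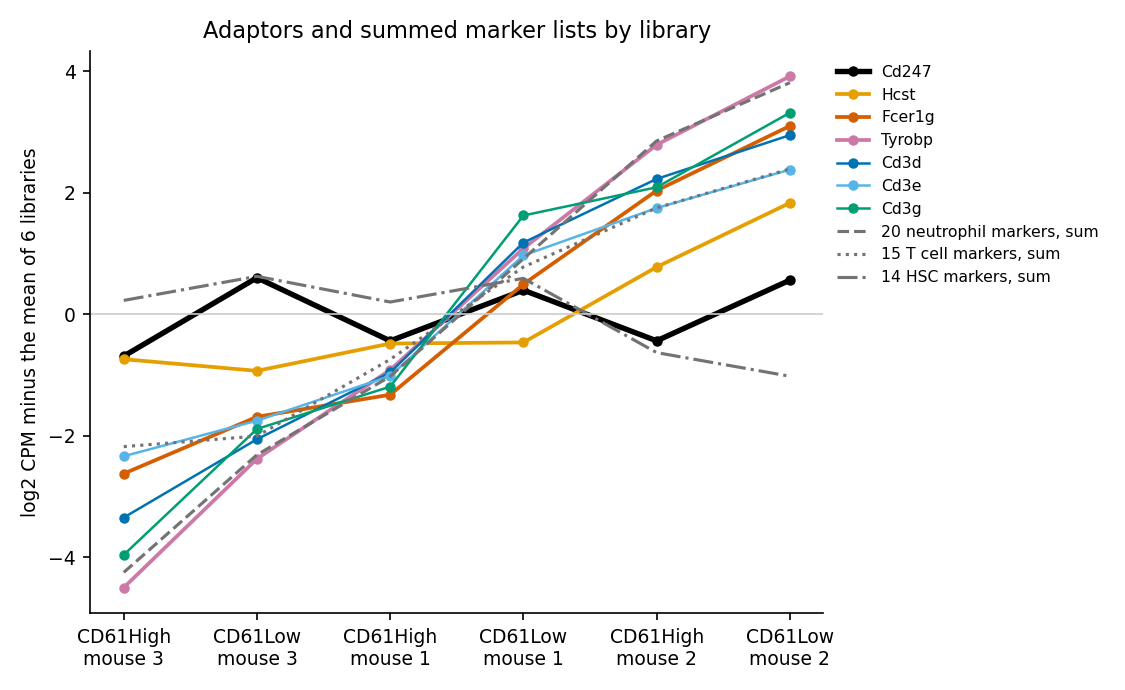
Log2 CPM of the adaptors and of the sums of 3 marker lists, each minus its mean over 6 libraries, with the libraries set out from mouse 3 through mouse 1 to mouse 2. Tyrobp and the neutrophil sum are lowest in mouse 3 and highest in mouse 2, as are the CD3 genes, Hcst is highest in mouse 2, and Cd247 alternates between the gates, spanning 0.25 or less across the mice of a gate.

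The profiles were also compared by their root mean square difference, in log2 units, after each was centred on its mean over the 6 libraries. The libraries share 3 animals, and the value is a description. Cd247 was 1.68 from Cd3e, 2.15 from Cd3d and 2.35 from Cd3g, and 1.02 from Hcst, its nearest adaptor. The CD3 genes were 0.37 to 0.83 from each other. Fcer1g was 0.41 from Cd3e and 0.98 from Tyrobp, and Tyrobp was 0.54 from Cd3g and 2.13 from Hcst. Among 10624 other genes with a mean of at least 5 CPM, the nearest to Cd247 were Insr (0.09), Rin2 (0.10), Rgl1 (0.11), Zfp609 (0.12) and Tmem38a (0.13). The nearest to Tyrobp were Pilrb2 (0.06), Clec12a (0.11), Lgals3 (0.12), Fcgr3 (0.14) and Cd52 (0.14). Among those nearest to Fcer1g were Mgst1 (0.05), Mcub (0.13), Paqr9 (0.19) and Rflnb (0.19), and those nearest to Cd3e were Lpxn (0.18), Slc7a11 (0.22), Cebpa (0.27), Olfm1 (0.29) and Dram1 (0.29).

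The kinases that act on the adaptors were unequally present, and the 5 described were chosen after their values were seen. Zap70, the kinase that binds the zeta and CD3 motifs in T cells, had 2, 35 and 0 counts in CD61High of mice 1, 2 and 3 and 40, 73 and 0 in CD61Low. Syk, its relative in myeloid and B cells, had 89.2, 208 and 116 CPM against 99.3, 239 and 64.0 CPM. In mouse 3 the adaptor Cd247 was thus detected with no Zap70 read and with Syk in both gates. Lck, the Src-family kinase of T cells, had 16.1, 27.3 and 13.1 CPM against 15.8, 33.0 and 10.0 CPM. Lyn, a Src-family kinase of myeloid and B cells, had 90.6, 203 and 91.8 CPM against 114, 321 and 75.4 CPM. Fyn, a more widely expressed Src-family kinase, was higher in CD61High in each mouse, at 106, 89.1 and 133 CPM against 83.4, 63.5 and 86.6 CPM. Fyn was not called: its log2 fold change was 0.49 (SE 0.21, adjusted p = 0.752) in edgeR without a block and 0.49 (SE 0.13, adjusted p = 0.118) when mouse was a block.

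Beyond the adaptors, 94 genes of the pathway were listed as receptors, kinases and scaffolds, or negative regulators, and edgeR called 0 of the 89 that passed the filter, with or without the block. Without the block 5 of them, all negative regulators, had an unadjusted p under 0.05, against 1023 of the 15610 genes. With the block, 17 receptors, 14 kinases and scaffolds and 9 negative regulators were lower in CD61High at that level. In the same order of lists, 0, 2 and 3 were higher. Of all genes, 3242 had such a p in either direction, and their split by direction was not counted. DESeq2 called 1 pathway gene and limma voom 0. Of the 41 kinases and scaffolds 33, and of the 25 negative regulators 22, were at or above 1 CPM in all 6 libraries, against 7 of the 28 receptors. Those 7 were Fcgr3, Clec4e, Clec4d, Treml2, Clec7a, Clec1b and Cd79b. Gp6, the collagen receptor that pairs with the Fc receptor gamma chain on platelets, Siglech, Klrc2 and Ncr1 had 0 counts in both libraries of mouse 3.

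No receptor was called, and 19 of 28 were lower in CD61High in 3 of 3 mice, against 24.7% of the 15610 genes kept by the filter. In edgeR with the mouse as a block, the 5 with the smallest p were Fcgr3, Siglech, Cd79a, Cd300lb and Fcgr2b, whose log2 fold changes were -1.50, -2.04, -1.62, -1.31 and -1.89 (adjusted p = 0.0622 to 0.0775). Fcgr3 is a low-affinity IgG receptor that needs the Fc receptor gamma chain, and Siglech pairs with DAP12 on plasmacytoid dendritic cells. Cd79a is itself an ITAM chain of the B cell receptor. Fcgr2b, though listed with the receptors, is an inhibitory IgG receptor that acts against ITAM signals. Without the block their adjusted p was 0.940 to 0.946. Of the sums beside them, 20 neutrophil markers ranged from 593 to 81800 CPM in CD61High and from 2270 to 159000 CPM in CD61Low, and 12 B cell markers from 5.72 to 2850 and from 10.5 to 4120 CPM. Their part was not tested.

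Among kinases and scaffolds, genes with the smallest p with the block included Blnk, Grap2, Pik3ap1 and Blk, at log2 fold changes of -1.71, -1.69, -0.61 and -1.60 (edgeR, adjusted p = 0.0648 to 0.107). Blnk is the linker that SYK phosphorylates in B cells. Among negative regulators they were Dok3, Dok2, Sh2b3, Sirpa and Pirb, at -1.68, 0.64, -0.56, -0.67 and -1.57 (edgeR with the block, adjusted p = 0.0599 to 0.0989). Dok2 and Dok3 are adaptors that dampen tyrosine kinase signals, and their estimates were of opposite sign. Sh2b3, which encodes the LNK adaptor that restrains cytokine signals in HSCs, was the gene that DESeq2 called without a block, at an adjusted p of 0.0233. DESeq2 called 1.52% of all genes, 0.692% lower in CD61High. Its edgeR estimate was -0.56 (SE 0.13) without and with the block.

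The calls in the pathway depended on whether mouse 2 was included and on the block. Blocked by mouse and without both libraries of mouse 2, edgeR called 15 of 83 listed genes, all lower in CD61High, where 4.77% of 15548 genes were called, 2.93% lower and 1.85% higher. The receptors among them were Fcgr3, Clec5a, Clec7a, Cd79a, Cd300lb, Cd300ld, Trem3, Treml2 and the inhibitory Fcgr2b. The kinases and scaffolds included Nfatc2, Pik3cd and Blnk, and the negative regulators were Pirb and Dok3. That fit rests on mice 1 and 3 alone, and without the block the same omission called 0 of the 83 genes. In mice 1 and 3 the neutrophil sum differed between the gates by -1.94 log2 units each, against -0.96 in mouse 2. The part of neutrophils in these calls was not tested.

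**Figure D5:**
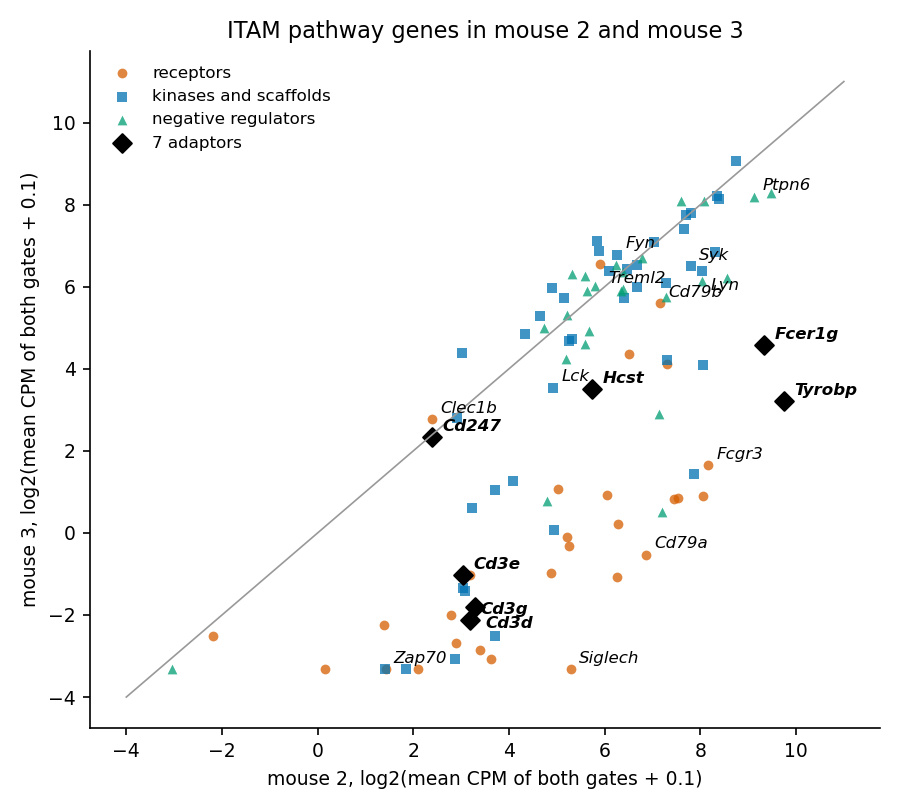
Mean CPM of both gates in mouse 2 (x axis) and in mouse 3 (y axis), as log2 of the value plus 0.1, for 94 pathway genes by list and for the 7 adaptors; the line marks equal levels. Cd247 lies on the line, most kinases and negative regulators lie near it, and the CD3 genes, Tyrobp, Fcer1g and most receptors lie below it.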

How the data were processed

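Bulk RNA-seq of 6 libraries was used, 1 CD61High and 1 CD61Low library of each of 3 mice, grouped by title. Per the labels' protocols, the SMART-Seq v4 kit turned 4 ng of RNA into cDNA, of which 1 ng went into Nextera XT. The authors deposited raw read counts per gene; per the submitters' processing notes STAR 2.7 was used, and their build was not given in the sources used here. All 55450 versioned identifiers were found in GENCODE M21 (GRCm38), which gave symbols, coordinates and exons. Unstranded counts were used, since 49.9% to 50.0% of stranded counts lay on the first strand. Lines that name no gene stayed out: unmapped reads (4.36% to 10.9%), multimapping (10.0% to 15.6%), outside genes (2.88% to 4.21%) and ambiguous (3.55% to 4.37%). Over 15 pairs of libraries chi-square per degree of freedom was at least 44.8, so none was taken as a duplicate.

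The test was edgeR's quasi-likelihood test (version 4.0.16, R 4.3.3, robust, TMM, filterByExpr by group, two-sided, Benjamini-Hochberg over 15610 genes). The titles tie equal numbers to 1 animal; deviations from the group means correlated at 0.236, 0.806 and 0.761 within mice 1, 2 and 3, and the fit with the mouse as a block was run beside the main one. DESeq2 1.42.0 and limma 3.58.1 (voom), other scalings, no filter, and fits without single libraries or mice were also run. The edgeR script was tested on simulated data. CPM are TMM-adjusted, and log2 CPM carry a prior count of 2. Without molecular identifiers, intervals and floors describe counting error only. Genes named are the 7 adaptors, the 5 pathway genes per list with the smallest blocked p besides any called, and the 5 nearest profiles to Cd247, Fcer1g, Tyrobp and Cd3e; some genes that the rule names are not reported here. The members and lists were chosen with earlier results of these data known.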

Additional observations from a re-analysis of the deposited data

How the results depend on the processing

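The number of genes called was 0 in the main test and with upper-quartile or relative log expression factors, library sizes alone, no filter, or limma voom. It was 40 with the mouse as a replicate block and 237 with DESeq2. Leaving out single libraries or mice gave 0 to 742 calls: 133 without mouse 2 and no block, and, with the block, 0 without mouse 1, 742 without mouse 2 and 7 without mouse 3. For the 94 pathway genes the count was 0 in the main test, 1 with DESeq2 and 0 to 15 over the same omissions, with 15 only under the block without mouse 2. The replicate block changed no call of a pathway gene over all 6 libraries. No mean difference of an adaptor, nor that of Cd247 less the CD3 genes, moved by more than its SD over mice under other prior counts, scalings or omissions of a mouse; those of Hcst (0.09 without mouse 2) and of Cd247 less the CD3 genes (-0.06 without mouse 1) changed sign. Cd3g moved between -2.66 and -1.66 with the prior count. Counts of 10 and 28 over the CD3 genes in mouse 3 limit what can be said of them there.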
